A study of Mus musculus with 12 samples.

Results

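Carboxylesterases were described here in mouse liver as the 10 genes Ces1b, Ces1c, Ces1d, Ces1e, Ces1f, Ces1g, Ces2a, Ces2e, Ces3a and Ces3b, taken by symbol from the 16821 genes listed for each mouse. All 10 were found, and all 10 passed the filter on low values. The files hold 19 genes with a carboxylesterase symbol, so that 9 others were used only for comparison. Liver RNA came from adult male C57BL/6J mice, purchased at 8 weeks of age, with no transgene or altered allele named. The 6 sedentary control (Con) mice were kept in the treadmill room but never ran, and the 6 chronic exercise (Exe) mice had moderate treadmill sessions of 60 min on 5 days of each of 6 weeks. The tissue sampled was saline-flushed liver, collected on the day after training ended at the latest, and per the study's methods a principal component analysis served to drop outlying samples. Each mouse contributed its own library and is named by group and number, from Con 1 to Exe 6.

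Carboxylesterases are serine hydrolases that split ester, thioester and amide bonds, and hepatocytes keep most of them in the lumen of the endoplasmic reticulum. They clear ester drugs and pesticides, and several of them also hydrolyse triglycerides and other lipid esters, which ties them to the secretion of very low density lipoprotein (VLDL). The mouse genome carries many more copies of the Ces1 and Ces2 genes than the human genome, arranged in clusters of neighbouring paralogs.

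The promoters of the members are shown first, as a description. Their part in the levels across mice was not tested. RefSeq (GRCm38.p6) held promoter entries for 7 of the 10 members, each with 250 bases before and 50 bases after a transcription start, and no entry was used for Ces1d, Ces1f and Ces3a. The 250 upstream bases of 5 members are given 5′ to 3′ along the gene. They were chosen to show a pair of close Ces1 paralogs and letters that recur. They also show the pairs most alike across mice by Spearman's rho (Ces1e with Ces2e and with Ces2a). Ces1b lies at chr8:93079941-93080190 (minus strand), Ces1c at chr8:93131284-93131533 (minus strand), Ces1e at chr8:93229620-93229869 (minus strand), Ces2a at chr8:104733753-104734002 (plus strand) and Ces2e at chr8:104926010-104926259 (plus strand). Capitals mark every match, on either strand, of TTNNGNAA, a loose form of the site bound by C/EBP factors.
Ces1b: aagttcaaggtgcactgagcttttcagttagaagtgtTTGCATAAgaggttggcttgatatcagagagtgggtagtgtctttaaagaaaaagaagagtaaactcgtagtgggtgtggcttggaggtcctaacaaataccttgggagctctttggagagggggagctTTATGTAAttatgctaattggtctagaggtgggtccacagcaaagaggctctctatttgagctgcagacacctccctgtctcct
Ces1c: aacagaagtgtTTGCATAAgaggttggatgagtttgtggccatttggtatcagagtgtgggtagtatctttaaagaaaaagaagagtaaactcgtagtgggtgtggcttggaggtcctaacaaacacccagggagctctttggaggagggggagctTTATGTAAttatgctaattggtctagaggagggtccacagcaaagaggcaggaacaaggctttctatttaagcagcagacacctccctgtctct
Ces1e: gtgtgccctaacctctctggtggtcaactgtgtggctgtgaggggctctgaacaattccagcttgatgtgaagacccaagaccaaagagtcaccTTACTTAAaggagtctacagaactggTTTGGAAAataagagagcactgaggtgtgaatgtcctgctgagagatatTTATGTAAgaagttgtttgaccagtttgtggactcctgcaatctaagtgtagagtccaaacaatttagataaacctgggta
Ces2a: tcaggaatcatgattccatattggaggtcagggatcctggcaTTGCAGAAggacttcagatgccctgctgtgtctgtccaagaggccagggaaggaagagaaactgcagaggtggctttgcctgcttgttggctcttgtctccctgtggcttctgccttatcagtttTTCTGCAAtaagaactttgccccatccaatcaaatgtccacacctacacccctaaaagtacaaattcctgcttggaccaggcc
Ces2e: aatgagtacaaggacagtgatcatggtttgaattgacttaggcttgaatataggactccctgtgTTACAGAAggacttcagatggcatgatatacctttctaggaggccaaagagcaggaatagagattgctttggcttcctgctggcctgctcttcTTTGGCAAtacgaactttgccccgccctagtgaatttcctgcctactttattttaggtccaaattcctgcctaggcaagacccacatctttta

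TTNNGNAA occurred in the 300-base promoter of 7 of the 7 member genes with an entry, against 40.7% of all 32851 promoter entries. The members are counted by gene and the background by entry. G and C made up 44.7% to 50.7% of the member promoters, beside a median of 52.7% over all entries. The background shares given here were not matched for this difference in base composition. The exact letters TTATGTAA, singled out after the matches were seen, lay in 4 members (Ces1b, Ces1c, Ces1e and Ces1g) and in 0.938% of all entries. Relative to the first base after the 250, they began at position -84 in the Ces1b entry shown, at -94 in Ces1c, at -81 in Ces1e and at -232 in Ces1g. A further entry for Ces1b, from another start of the gene, holds the same stretch at position -7. The promoters of Ces1b and Ces1c were identical at 255 aligned bases of 300 (85.0%), and those of Ces2a and Ces2e at 184 of 300 (61.3%), so that shared letters between such paralogs are not separate occurrences. In the same alignment, member pairs of different subfamilies were identical at 48.0% to 54.3% of the 300 bases, which is not far below the value of Ces2a and Ces2e. TATAAA was found in 2 of the 7 members, Ces1g and Ces3b (13.6% of all entries), AGGTCA, as bound by nuclear receptors, in Ces2a (16.3%) and GTTAAT, part of the HNF1 site, in Ces3b (7.10%), each searched on both strands. The STAT-type letters TTCNNNGAA were found in 0 of the 7 (8.30% of all entries). These matches describe letters and not bound sites.

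Levels are in FPKM, fragments scaled to transcript length and to the mapped fragments of the library, and these values summed to between 735200 and 820107 per mouse. Read numbers per mouse are unknown, and the only error given is the spread between mice. Hepatocyte markers were present in every mouse, with Alb, the gene of serum albumin, between 29517 and 48015 FPKM, while markers of kidney (2 of 5 listed) and lung (1 of 4) summed to at most 0.06 and 1.04 FPKM. Pancreatic acinar markers summed to 8.51 to 17.0 FPKM in Con and 12.9 to 28.9 FPKM in Exe mice. Red blood cell markers summed to 235.1 to 902.9 FPKM in Con and 400.3 to 1290 FPKM in Exe mice. Both sums were highest in Exe 5, and their part in the carboxylesterase levels was not tested. Several members are also made in gut or fat. Of the intestinal list, 5 of 6 markers were in the files and summed to between 40.5 and 70.6 FPKM, most of it from Fabp2 (31.3 to 61.6 FPKM), and 2 of them were under 1 FPKM in all mice. Of the adipose list, 4 of 5 were in the files and summed to between 10.01 and 22.0 FPKM, led by Fabp4, with 3 of them under 1 FPKM in all mice. In whole liver, fewer cells of a type and less RNA per cell cannot be told apart.

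By mean level, the family formed 3 tiers of expression. FPKM are per length, so levels can be set side by side between genes. Ces3a (mean 1324 FPKM over 12 mice) and Ces1c (1205 FPKM) stood at the top and ranked 67 and 76 among all genes listed. Ces1c encodes the esterase that mouse liver secretes into plasma. Ces3a exceeded Ces1c in 11 of the 12 mice, with Exe 2 the exception, but their ranges overlapped. The gap below Ces1c was clean, since its lowest mouse (1008 FPKM) lay above the highest mouse of the next gene, Ces3b (432.1 FPKM).

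The middle tier held Ces3b (323.1 FPKM), Ces1d (255.5 FPKM), Ces2a (233.8 FPKM) and Ces1f (209.7 FPKM). Ces1d encodes triacylglycerol hydrolase, which releases stored lipid for VLDL assembly. Ces1d was above Ces2a in 6 of 12 mice, so the order of these neighbours was not settled. Ces3b was above Ces1d in 9 of 12 mice, and Ces2a above Ces1f in 12 of 12 although their ranges across mice overlapped. The lowest Ces1f value (149.6 FPKM) lay above the highest value of Ces1g (124.0 FPKM).

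The lower tier held Ces1g (99.9 FPKM), Ces2e (76.6 FPKM), Ces1e (55.1 FPKM) and Ces1b (42.4 FPKM). Ces1e encodes egasyn, which holds beta-glucuronidase in the endoplasmic reticulum, and Ces1g encodes a lipid-hydrolysing member whose loss is known to raise liver fat. Neighbours in this tier overlapped in range, yet Ces1g was above Ces2e and Ces2e above Ces1e in 12 of 12 mice, and Ces1e above Ces1b in 10.

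**Figure D1:**
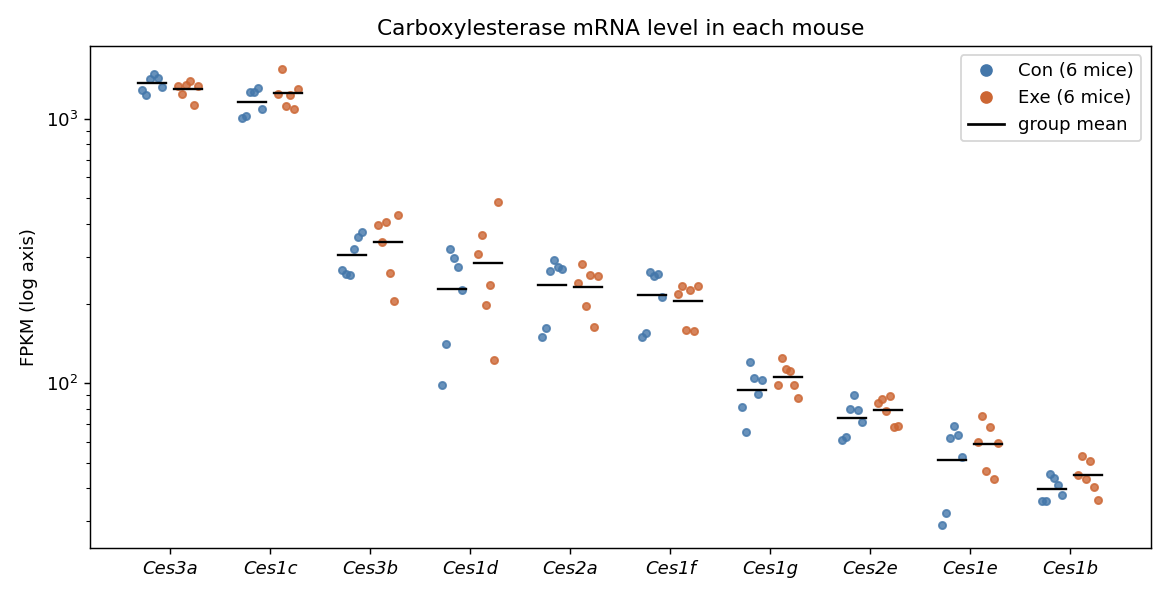
FPKM (log axis) of the 10 carboxylesterases in each of 6 Con and 6 Exe mice, ordered by mean level, with black lines at the group means. Ces3a and Ces1c sat near or above 1008 FPKM in every mouse, and Con and Exe points overlapped for every gene.

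Together the 10 genes summed to between 3119 and 4340 FPKM per mouse, or 0.392% to 0.590% of all FPKM. Ces3a and Ces1c made up 61.3% to 72.4% of that sum. By subfamily, the Ces1 genes took 44.2% to 55.1% of it, the 2 Ces3 genes 36.4% to 49.1% and the 2 Ces2 genes 6.66% to 9.08%. The sum averaged 3758 ± 486.3 FPKM in the Con group against 3892 ± 446.2 FPKM in the Exe group (SD, n = 6 each), a difference smaller than either SD.

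The members differed widely in how much they varied. The coefficient of variation over 12 mice was 43.0% for Ces1d, higher than for 97.5% of the genes fitted, and 26.4% for Ces1e. It was 7.21% for Ces3a, at the 13.6th percentile of the same genes. The median over the members was 18.8%, beside 11.7% over the 10241 genes fitted and 9.33% over the 1564 of them at or above the mean level of the lowest member.

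The question of the design was whether 6 weeks of running altered the liver. Log2(FPKM + 1) was compared between groups with limma over the 10241 genes with at least 1 FPKM in at least 6 mice. Of the 10 carboxylesterases, 0 passed an adjusted p of 0.05, and 0% of all genes fitted did so. The study itself, with DESeq, did report genes that differed between the groups. The counts here belong to the limma fit of FPKM and do not mean that no gene changed. At an unadjusted p of 0.05, 0 of the 10 passed where 6.21% of all genes fitted did (636 genes). The smallest adjusted p from limma among the members was 0.861, for Ces1b, and the smallest over all genes was 0.519. In direction, 8 members were higher in Exe mice and 2 lower, with a median log2 fold change of 0.12 beside 0.016 over all genes fitted. Of those 10241 genes 5892 were higher in Exe mice, and of the 1554 at or above the level of the lowest member 1096 were, with a median of 0.052.

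Among the lipid-hydrolysing Ces1 members, Ces1d had the largest estimate. Its FPKM ran from 98.4 (Con 1) through a median of 249.9 to 321.5 (Con 3) in Con mice, and from 122.2 (Exe 5) through 271.8 to 482.3 (Exe 6) in Exe mice. Of the Exe mice 2 lay above every Con mouse and 0 below the Con range, so the groups overlapped. The log2 fold change was 0.32 (standard error 0.34, adjusted p = 0.935 from limma), and the exact two-sided permutation test gave p = 0.437. The 95% interval ran from -0.42 to 1.05 on the log2 scale. The estimate was 0.10 without Con 1 and 0.53 without Exe 5.

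Ces1g lay between 65.2 and 120.2 FPKM (median 96.6) among Con mice, and the Exe mice held values of 88.0 to 124.0 FPKM (median 104.9). Here 5 of 6 Exe mice lay above the Con median but 1 above every Con mouse. The log2 fold change was 0.18 (standard error 0.13, adjusted p = 0.911 from limma). Without Con 2, the lowest mouse, the difference was 0.08.

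Ces1f ran from 149.6 through 232.3 to 264.0 FPKM in Con mice and from 157.8 through 221.8 to 233.3 FPKM in Exe mice. No Exe mouse lay above the Con range or below it. Its log2 fold change of -0.05 (interval -0.41 to 0.30, adjusted p = 0.977 from limma) was 0.02 without Exe 5 and -0.15 without Con 1.

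Ces1e, the egasyn gene, ran from 29.1 (Con 1) through 57.2 to 69.2 FPKM in Con mice and from 43.5 (Exe 5) through 59.8 to 75.0 FPKM in Exe mice. The group medians were close, and the wider gap between the means came from Con 1 and Con 2 at 29.1 and 32.4 FPKM. The log2 fold change was 0.24 (standard error 0.21, adjusted p = 0.931 from limma) and was 0.09 without Con 1. Gusb, which encodes the beta-glucuronidase that egasyn binds, was on a list of 6 genes of retention in the endoplasmic reticulum, of which 5 were fitted. On that list 4 were higher and 1 lower in Exe mice and 0 passed an adjusted p of 0.05. Gusb was the lower one (-0.08 on the log2 scale, adjusted p = 0.936 from limma). P4hb, a protein disulfide isomerase and its highest gene, averaged 502.0 ± 32.3 FPKM without running against 558.3 ± 27.6 FPKM with it (SD, n = 6), with an adjusted p of 0.793 from limma.

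Ces1c, the plasma esterase gene, ran from 1008 through 1175 to 1307 FPKM in Con mice and from 1091 through 1234 to 1543 FPKM in Exe mice. Its log2 fold change was 0.11 (interval -0.10 to 0.32, adjusted p = 0.929 from limma), and 1 Exe mouse, Exe 2, lay above every Con mouse. Without Exe 2 the Ces1c estimate was 0.050. Ces1b, whose promoter is the most like that of Ces1c among the pairs given above, ran from 35.8 through 39.4 to 45.2 FPKM and from 36.3 through 44.2 to 53.0 FPKM. For Ces1b, 5 of 6 Exe mice were above the Con median and 2 above every Con mouse, with a log2 fold change of 0.16 (interval -0.04 to 0.36) and an exact two-sided permutation p of 0.156. Without Exe 6, the lowest Exe mouse, the Ces1b difference was 0.22 on the log2 scale and passed an unadjusted p of 0.05 from limma, but not an adjusted one.

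The Ces2 enzymes favour esters with a large alcohol group, such as the prodrug irinotecan. Ces2a averaged 235.7 ± 62.8 FPKM in the Con group against 231.8 ± 44.3 FPKM in the Exe group (SD, n = 6). Its log2 fold change was 0.0018 (interval -0.40 to 0.40, adjusted p = 0.99995 from limma), which was -0.12 without Con 1 and 0.10 without Exe 5. The Con mice split into 149.8 and 161.3 FPKM in Con 1 and Con 2 against 266.5 to 291.2 FPKM in the other 4, so the interval stayed wide around a mean difference near 0. Ces2e, also a gut enzyme, ran from 61.2 through 75.3 to 90.3 FPKM in Con and from 68.2 through 81.3 to 89.1 FPKM in Exe mice, which is 0.10 on the log2 scale (interval -0.12 to 0.32, adjusted p = 0.932 from limma). The Ces2e estimate was 0.051 without Con 1 and 0.16 without Con 4.

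Ces3a, the highest and steadiest member, averaged 1359 ± 93.4 FPKM in the Con group against 1290 ± 92.1 FPKM in the Exe group (SD, n = 6). Its log2 fold change of -0.08 had the narrowest interval, -0.22 to 0.07 (adjusted p = 0.931 from limma). Only 1 of 6 Exe mice lay above the Con median, and Exe 5 (1130 FPKM) lay below every Con mouse. Without Exe 5 the Ces3a estimate was -0.038. Ces3b ran from 256.4 through 295.5 to 371.8 FPKM in Con mice and from 204.8 through 368.4 to 432.1 FPKM in Exe mice, with 3 Exe mice above and 1 below the whole Con range. Its log2 fold change was 0.12 (interval -0.25 to 0.50, adjusted p = 0.953 from limma), and it was 0.045 without Exe 6 and 0.26 without Exe 5.

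**Figure D2:**
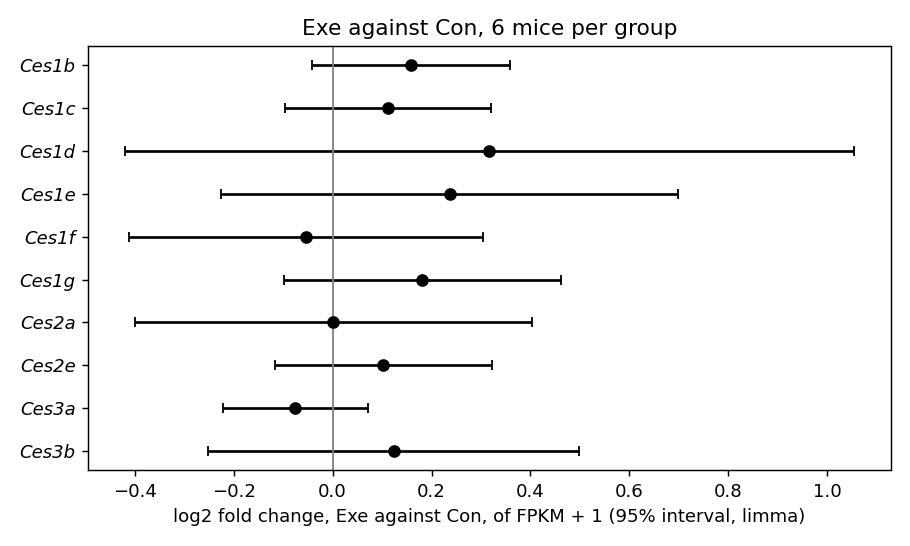
Log2 fold change of FPKM + 1, Exe against Con, for each carboxylesterase, with 95% intervals from limma (6 mice per group). Every interval includes 0, and the interval of Ces1d is the widest, from -0.42 to 1.05.

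Hepatocyte markers differed in the same direction as most members. All 8 hepatocyte markers were higher in Exe mice (median log2 fold change 0.078). Of the 1554 genes at or above the level of the lowest carboxylesterase 1096 were. Among the 8 markers, Cps1 and Alb passed an unadjusted p of 0.05 from limma, while 0 passed an adjusted p of 0.05. With the mean log2 value of these markers as a covariate, a setting chosen after the data were seen, 1 member was higher and 9 were lower in Exe mice, and 0 passed an adjusted p of 0.05. This covariate was itself related to the acute-phase index used further on (Spearman's rho -0.587 over 12 mice). It therefore cannot be read as hepatocyte content alone. Under quantile normalization between mice 7 were higher and 3 lower.

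The acute-phase index used further on, added as a covariate, also left 7 members higher and 3 lower. With it the estimate of every member was lower than without it. The log2 fold change was 0.13 for Ces1d, 0.095 for Ces1e, 0.058 for Ces1c, 0.063 for Ces3b and 0.038 for Ces2e. It was 0.11 for Ces1b and 0.15 for Ces1g, and all of these were closer to 0 than without the covariate. Further from 0 than without the covariate were Ces1f (-0.15), Ces2a (-0.12) and Ces3a (-0.11). With the covariate 0 members passed an adjusted p of 0.05 from limma.

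Across mice the members were low or high together. Con 1, Con 2 and Exe 5 were below the gene's own 12-mouse mean for all 10 members, and held 8, 10 and 8 members at one of their 3 lowest values. The mean of the members' log2 values relative to their own means was -0.45, -0.40 and -0.33 in these mice and between -0.04 and 0.29 in the other 9. Con 1 alone held the lowest value of 6 members. At the other end, Exe 2 was highest for 4 members and Con 4 for 3. Both groups thus held mice at the low end, and Ces1d, at 98.4, 140.2 and 122.2 FPKM in Con 1, Con 2 and Exe 5, lay below 197.7 FPKM only there.

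**Figure D3:**
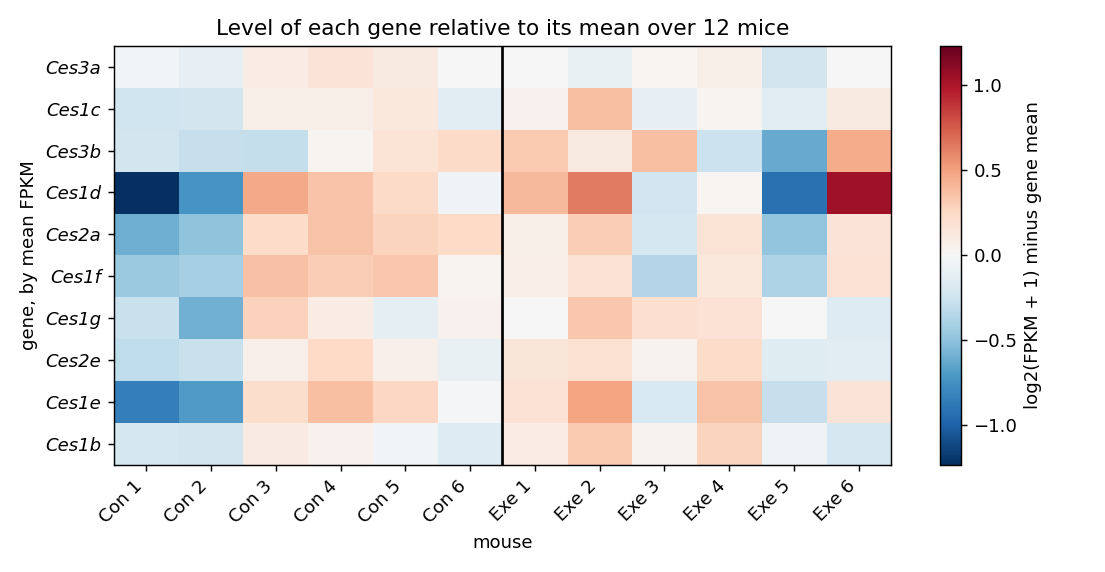
Heat map of log2(FPKM + 1) of each carboxylesterase minus its mean over 12 mice, genes by row and mice by column, with a line between Con and Exe mice. Con 1, Con 2 and Exe 5 are below the mean in all 10 rows, and Ces1d shows the widest swings.

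Of the 45 pairs of members, 44 had a Spearman's rho above 0 over the 12 mice, with a median of 0.594. By rho the closest pair was Ces1e and Ces2e (rho 0.923, Pearson's r 0.880 on the log2 scale). Ces1e and Ces2a followed (rho 0.888, r 0.932), and both pairs join different clusters of the family. By Pearson's r the closest pair was Ces1f and Ces2a (r 0.947, rho 0.839). Ces3b stood furthest from the rest, with a rho of -0.042 with Ces1b. Pearson's r was above 0 within Con mice and within Exe mice for 41 of the 45 pairs. These correlations are descriptions without a test, because all members of a mouse share its library and its scaling.

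Sequence overlap between paralogs bears on these comparisons. Of all 150-base stretches in the longest coding transcript of each member (GENCODE M21), the length of 1 read, 0 were shared with another gene for 7 of the 10. The exceptions were Ces2a, with 4.03% shared with the gene model Gm7208, and the pair Ces3a and Ces3b, with 2.37% and 1.996% shared with each other. At 50 bases the shares rose to 30.9% for Ces3a, 26.1% for Ces3b, 22.2% for Ces2a and 17.0% for Ces1c. How fragments matching several genes were counted is not given in the sources used here, so the split between Ces3a and Ces3b is less certain than their sum, which averaged 1664 ± 121.4 FPKM in the Con group against 1631 ± 160.0 FPKM in the Exe group (SD, n = 6).

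Genes whose pattern over the 12 mice was most like that of a member were named by Spearman's rho, again as a description. For Ces1d, which had the largest fold change, they were Sar1b (rho 0.972), a GTPase of the vesicles that export lipoproteins from the endoplasmic reticulum, Tomm20 (0.937) and Cyp2c29 (0.937). For Ces3a, the member of the highest mean, they were Bri3bp (0.958), Adgrf1 (0.923) and Klf9 (0.888). Ces1b, which had the smallest p, was followed most closely by Rmdn2 (0.972), Met (0.937) and Tarsl2 (0.916).

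Acute-phase genes, which hepatocytes raise strongly during inflammation, varied between mice of both groups, and the carboxylesterases were set beside them. The index used was the mean log2(FPKM + 1) of Saa1, Saa2, Saa3, Orm1, Orm2, Lcn2, Hp and Serpina3n. It was highest in Con 1 (10.8), Exe 5 (10.7) and Con 2 (9.90), and lowest in Exe 4 and Con 5 (6.74 each). Saa1 alone ran from 148.5 FPKM in Exe 2 to 9260 FPKM in Con 1. All 8 of these genes were lower in Exe mice (median log2 fold change -0.69), beside 4349 of all 10241 genes fitted. Of the 8, 0 passed an unadjusted p of 0.05 from limma.

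In a limma fit of group and index over 10233 genes, the slope on the index was below 0 for 10 of 10 members, at a median of -0.096 log2 units per index unit. Over all genes fitted, 6024 slopes were below 0 (median -0.0087), and among the 1547 genes at or above the level of the lowest member 1163 were (median -0.025). With adjustment over all genes 0 members passed 0.05, and 0.0977% of the genes passed with a slope below 0. At an unadjusted p of 0.05, 8 members had a slope below 0, beside 9.9% of all genes fitted and 24.2% of the genes at or above the level of the lowest member. The members vary together and are not 10 separate pieces of evidence.

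The steepest slopes were those of Ces1d at -0.29 (standard error 0.09, adjusted p = 0.147 from limma), Ces1e at -0.22 (0.05, adjusted p = 0.0591) and Ces2a at -0.18 (0.04, adjusted p = 0.0744). Ces1f followed at -0.15 (adjusted p = 0.0987) and Ces2e at -0.10 (adjusted p = 0.0744). Ces1g (-0.05, adjusted p = 0.580) and Ces3b (-0.09, adjusted p = 0.449) were the members that did not reach an unadjusted p of 0.05. The Ces3b slope was -0.019 without Exe 5, and that of Ces1g was -0.033 without Con 2. For Ces1e the level was 29.1 FPKM in Con 1 against 63.5 FPKM in Con 5, the Con mice with the highest and the lowest index.

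Pearson's r with the index was below 0 for 10 of 10 members within Con mice (-0.82 to -0.29) and within Exe mice (-0.92 to -0.36), given as a description. The relation was not independent of single mice. Without Con 3, whose index was 9.71 while its carboxylesterases were above their means in all but 1 case, 4 members passed an adjusted p of 0.05 (Ces1e, Ces1f, Ces2a and Ces2e), without Con 6 only Ces2a did, and 0 did in the other 10 fits that left out 1 mouse. With the index alone and no group term, 2 members passed (Ces1e and Ces2e). Without Con 1 and Exe 5, the mice farthest from the median index, 0 passed and 9 slopes were below 0, and with the hepatocyte marker covariate 0 passed and 9 were below 0. Over the 12 mice the index and the hepatocyte marker level were themselves related (Spearman's rho -0.587, as a description), and the part of either in the carboxylesterase levels was not tested.

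Markers of other liver cells were read against the index as well. Its slope was above 0 for 5 of 5 Kupffer cell markers and 5 of 5 markers of stellate cells and fibroblasts. The same held for 2 of 2 bile duct genes fitted, and for 4209 of all 10233 genes fitted. Of these Kupffer, stellate and bile duct genes 0 passed an adjusted p of 0.05 from limma. For sinusoidal endothelium 4 of 5 slopes were below 0 (median -0.072), as for the carboxylesterases. One of these, Kdr, a receptor for vascular endothelial growth factor, passed (slope -0.14, adjusted p = 0.0384 from limma), and it is named here after its value was seen. The Kupffer markers summed to 196.3, 235.3 and 221.4 FPKM in Con 1, Con 2 and Exe 5, the mice with the lowest carboxylesterases, beside 87.4 to 185.1 FPKM in the other 9. Across the groups these sums overlapped, from 125.7 to 235.3 FPKM in Con and from 87.4 to 221.4 FPKM in Exe mice. The part of these cells in the carboxylesterase levels was not tested.

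**Figure D4:**
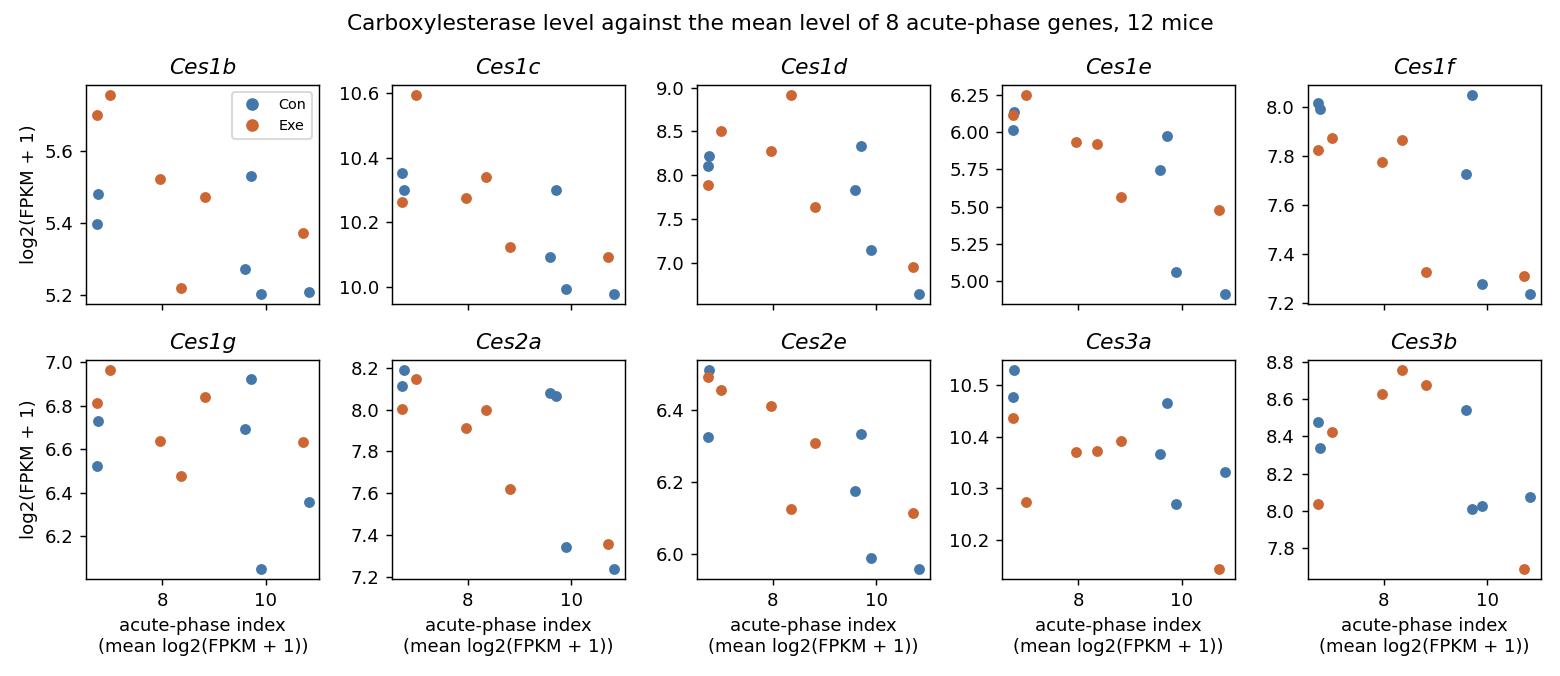
Log2(FPKM + 1) of each carboxylesterase against the acute-phase index, the mean log2(FPKM + 1) of 8 acute-phase genes, in 6 Con (blue) and 6 Exe (orange) mice. Con 1 and Exe 5, at 10.8 and 10.7 on the horizontal axis, lie at or near the bottom for most genes, and Con and Exe points share the same range.

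Of the other carboxylesterases, Ces2c reached the lower tier and the rest were below it. Ces2c averaged 73.8 ± 19.7 FPKM in the Con group against 68.2 ± 16.5 FPKM in the Exe group (SD, n = 6; log2 fold change -0.11, adjusted p = 0.959 from limma), and Ces2g lay between 14.04 and 24.97 FPKM. Ces2b (0.44 to 4.02 FPKM) and Ces4a (0.70 to 3.54 FPKM) also passed the filter, and Exe 1 and Exe 6 held the 2 highest Ces2b values, 4.02 and 3.79 FPKM. Ces1a, Ces1h, Ces2f, Ces2h and Ces5a stayed at or below 0.40 FPKM in every mouse. Of the 4 fitted, 2 were higher and 2 lower in Exe mice, and 0 passed an unadjusted p of 0.05 from limma. An index slope below 0 was seen for 4 of 4, beside 6024 of all 10233 genes fitted.

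Genes that work beside the carboxylesterases were read from the same fit. For comparison, 5892 of all 10241 genes fitted were higher in Exe mice and 4349 were lower. Of 21 other lipid ester hydrolases, 20 were fitted, 11 higher and 9 lower in Exe mice, and 2 passed an unadjusted p of 0.05. These were Lipg, endothelial lipase, at 4.21 ± 2.22 FPKM against 2.02 ± 0.89 FPKM in Con and Exe mice (adjusted p = 0.793 from limma), and Abhd3 (adjusted p = 0.799). Aadac, an esterase of the endoplasmic reticulum membrane and the highest gene of the list, was at 361.5 ± 50.9 and 366.7 ± 40.3 FPKM. On the acute-phase index, 1 gene of this list passed, Lipc, hepatic lipase, named after its value was seen (slope -0.11, adjusted p = 0.0486 from limma). Of 8 hydrolases of drug and organophosphate esters, 7 were fitted and 6 were higher. Pon1, the serum paraoxonase, averaged 424.9 ± 38.3 FPKM in the Con group against 510.6 ± 48.1 FPKM in the Exe group (SD, n = 6). That is 0.26 on the log2 scale (standard error 0.08), at an unadjusted p of 0.00384 and an adjusted p of 0.756 from limma.

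Of 13 genes of VLDL assembly and secretion, 9 were higher and 4 lower in Exe mice (median log2 fold change 0.067). Of all 10241 genes fitted 5892 were higher. Of the 1554 at or above the level of the lowest carboxylesterase 1096 were (median 0.052). In the VLDL list, 2 genes passed an unadjusted p of 0.05 from limma. They were Tm6sf2, which loads lipid onto VLDL, at 18.3 ± 0.99 and 22.3 ± 4.06 FPKM, and Apoc3, an inhibitor of triglyceride clearance, at 3857 ± 444.5 and 4508 ± 533.3 FPKM in Con and Exe mice (adjusted p = 0.793 and 0.799 from limma). Of 14 nuclear receptors and other liver regulators, 4 were higher and 10 lower, and 0 passed an unadjusted p of 0.05. Cebpa, their highest gene, was at 163.5 ± 7.90 and 153.9 ± 9.66 FPKM (adjusted p = 0.882 from limma).

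CAR and PXR, receptors that sense foreign chemicals, induce several carboxylesterases along with Cyp2b, Cyp2c and Cyp3a genes. Of 11 listed targets, 10 were found and 8 were fitted, of which 4 were higher and 4 lower in Exe mice. An index slope below 0 was seen for 8 of 8 (median -0.15). Slopes were below 0 for 6024 of all 10233 genes fitted. They were below 0 for 1163 of the 1547 at or above the level of the lowest carboxylesterase. Cyp2c37 averaged 148.6 ± 37.9 FPKM against 205.9 ± 55.9 FPKM in Con and Exe mice (adjusted p = 0.793 from limma), with a slope of -0.20 (adjusted p = 0.0455). Cyp3a11 was at 2136 ± 756.0 and 1812 ± 329.8 FPKM (adjusted p = 0.954). Over all these lists, 0 genes passed an adjusted p of 0.05 between groups. The kidney and lung marker lists had 0 genes fitted. Among the 8 other lists of cell type markers besides hepatocytes, Kupffer cells, stellate cells and fibroblasts, and bile duct were lower in Exe mice for 5 of 5, 5 of 5 and 2 of 2 genes fitted, sinusoidal endothelium for 2 of 5, and red blood cells for 1 of 5. The 1 pancreatic acinar gene and the 1 adipose gene fitted were higher, as was 1 of 2 intestinal genes, with 0 past an adjusted p of 0.05. Over all 10241 genes fitted, 5892 were higher and 4349 lower. Hbb-bs, a red blood cell gene, was the 1 marker of these lists at an unadjusted p of 0.05 from limma (log2 fold change 0.83, adjusted p = 0.799).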

How the data were processed

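Liver RNA-seq of 6 Con and 6 Exe mice was analysed, one library per mouse. Per the paper, adapter sequence and low-quality, N-rich or short reads were removed and the rest aligned to GRCm39 with HISAT. The submitters' processing notes also name Bowtie2 and mm10. The authors deposited FPKM to 2 decimals, and the FPKM tool, annotation and any scaling between mice are not given in the sources used here. The study's own test needs counts. FPKM are not counts, so log2(FPKM + 1) was fitted in limma 3.58.1 (R 4.3.3; trend, Benjamini-Hochberg over all genes). The filter was at least 1 FPKM in at least 6 mice, and the thresholds were an adjusted p of 0.05 and, over all genes, an absolute log2 fold change over 1. The pseudocount understates changes of low genes. For single members, exact permutation tests used all 924 divisions into groups of 6 (smallest p 0.00216). The acute-phase slope came from a fit of group and index without the 8 index genes. The fits were run on simulated data in which each gene varied independently between mice. That check does not cover genes that vary together, as the members do. No 2 libraries were identical. The libraries are separate mice.

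The members and lists were chosen with earlier results of these data known. Named were all members, up to 3 genes per list at an unadjusted p of 0.05, the highest gene of each list, and the 3 genes most like each of 3 members. Alternatives were quantile normalization, no filter, a filter at 5 FPKM, a pseudocount of 0.1, robust moderation, the replicate number as a block, the index as a covariate, no group term for the slope, and each mouse left out. A hepatocyte marker covariate and leaving out 2 mice were added after seeing the data. Promoter sequences are from RefSeq GRCm38.p6, and no coordinates were carried over from GRCm39. Python 3.11.15 and Biopython 1.88 were used for sequences.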

Additional observations from a re-analysis of the deposited data

How the results depend on the processing

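Of 491 recomputed values, 458 had the same sign and call, or a count near the reported one. Many of them could not differ in sign. The filters, robust moderation and, between groups, the replicate block leave the estimate of a member unchanged. The count is therefore not a measure of robustness. Between groups, 0 genes passed both thresholds and 0 carboxylesterases passed an adjusted p of 0.05 in limma in every alternative. At an unadjusted p of 0.05, 0 members passed, except Ces1b without Exe 6 (range 0 to 1 with each mouse left out). For the acute-phase slope, where 0 members passed, the count ranged from 0 to 4 with each mouse left out (4 without Con 3, 1 without Con 6) and was 2 with no group term. Signs turned for Ces2a between groups under quantile normalization (log2 fold change -0.057), with the acute-phase covariate (-0.12) and in 6 of the 12 fits with a mouse left out (range -0.12 to 0.10). Ces1f turned in 5 such fits (range -0.15 to 0.017). With the hepatocyte marker covariate, Ces1b (-0.062), Ces1c (-0.050), Ces1d (-0.010), Ces1e (-0.15), Ces1g (-0.064), Ces2a (-0.27) and Ces2e (-0.11) were lower in Exe mice, and the slope of Ces1g was 0.015. Without the 2 mice farthest from the median index, the slope of Ces3b was 0.0034. The cause was not tested.

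The same numbers recur in both groups, and the sample names state no pairing of the mice. The correlation of deviations from the group means within a number was between -0.48 and 0.16, and 1 of 6 Con mice correlated best with its own number. These few values show no pairing but cannot exclude it. With the replicate block, 0 members passed in either comparison (smallest adjusted p from limma 0.907 between groups and 0.0914 for the slope), and the slope of Ces3b was -0.19. Reads per mouse are unknown, so counting error is not separated from the spread between mice.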
